A study of Mus musculus with 5 samples.

Results

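The genes described here carry newly made proteins into the endoplasmic reticulum (ER) and on to the Golgi apparatus. They were taken by name, as all genes whose symbol begins with Sec plus a digit, Ssr1 to Ssr4, Spcs, Srp plus a digit, Srpr, Pdia, Tmed, Copa, Copb, Cope, Copg, Copz, Lman or Kdelr, together with Serp1. Of 59 such genes on the array, 57 had at least 1 probe with a value on all 5 arrays, out of 8637 genes measured in this way. The remaining 2, Kdelr1 and Lman2l, each lacked a value on 1 array. The rule uses names and no measured level, but it was set with earlier results of these data known.

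The arrays set macrophages, grown from C3H/ARC bone marrow in culture with human CSF-1, against a common reference of whole C57BL6/J embryos of day 17.5. One sample was untreated (0 h), and 4 had received lipopolysaccharide (LPS, the endotoxin of Gram-negative bacteria, here of S. minnesota) at 10 µg per ml for 0.5, 2, 7 or 21 h. All 5 share the strain and the growth factor, and the untreated sample received no LPS. Each time was measured once, so no p-value is given, and differences are described by their size and by the spread between probes of one gene. The labels do not say how many mice gave cells to each sample, and cultured macrophages lack the tissue around them.

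A protein destined for secretion or for a membrane carries a signal peptide that the signal recognition particle (SRP) binds as it leaves the ribosome. The SRP receptor hands the ribosome to the Sec61 channel, the signal peptidase removes the peptide, and protein disulfide isomerases (PDIs) form disulfide bonds in the ER lumen. Cargo then leaves in vesicles with the COPII coat, and COPI vesicles bring escaped ER residents back from the Golgi, with p24 proteins, lectins and KDEL receptors as the cargo receptors. Macrophages exposed to LPS secrete cytokines, chemokines and complement proteins through this route.

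A value below is a log2 ratio of macrophage to embryo signal, relative to the median probe of its array, and a change is that ratio minus the ratio at 0 h. The deposited values were read as log10. This base was inferred from the values, and if they were log2 every change would be smaller by a factor of 3.32. The labels do not settle the direction of the ratio. Macrophage over embryo is likely, because the macrophage genes Ctss, Fcgr1 and Lyz2 stood at 6.21, 4.46 and 4.16 at 0 h and the embryo genes Alb, Col1a2 and Afp at -5.50, -5.29 and -4.43. Of 15 macrophage symbols listed, some of them older names of the same gene, 4 had values, and the fourth, Cd68, stood at -0.49. The 8 embryo genes with values ran from -5.50 to -0.78, with Col3a1 (-0.88) and Dlk1 (-0.78) least low. The 5 arrays correlated with each other at 0.65 to 0.89 over 13782 named probes, which share the embryo reference. The 0.5 h and 2 h arrays hold stretches of consecutive probe numbers with many high ratios (94 of 207 runs of 96 probes, called affected runs below). Of the 117 probes of the 57 genes 39 lie in such runs (33.3%, against 41.5% of all named probes), and 10 genes have no probe outside them. The 57 genes are thus less exposed to these runs than all genes. The only probes of Ctss and Fcgr1 and 2 of the 3 Lyz2 probes also lie in such runs.

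Most of the machinery stayed close to its level in untreated cells. At 7 h and at 21 h, 49 of the 57 genes lay within 1.5-fold of 0 h (86%), against 77.7% and 84.4% of all genes. The median changes at 0.5, 2, 7 and 21 h were 0.09, -0.04, 0.08 and 0.10, beside 0.08, 0.07, -0.00 and 0.02 for all genes. A gene was counted when its level passed 2-fold upward or downward from 0 h. At 0.5 h, 0 of the 57 genes passed in either direction, where 5.95% of all genes passed upward and 1.01% downward. At 2 h, 2 passed upward (Sec61b and Kdelr3) and 0 downward, against 12.4% and 1.10% of all genes. At 7 h, 1 passed upward (Serp1) and 1 downward (Sec22b), against 4.08% and 3.16% of all genes. At 21 h, 2 passed upward (Serp1 and Copb1) and 1 downward (Sec22b), against 3.05% and 1.45%. The upward count at 2 h, as a share of the 57 genes, is below that background, and the counts at 7 h and 21 h are near it. The background at 2 h includes the affected runs, and without them it was 4.22%.

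Without the affected runs 47 of the genes keep a probe. At 0.5 h and 2 h 0 of these passed 2-fold in either direction, against 1.28% (upward) and 0.984% (downward) of all 5996 genes outside the runs at 0.5 h and 4.22% and 1.55% at 2 h. At 7 h Serp1 passed upward and Sec22b downward, against 4.52% and 2.87%, and the same 2 genes passed at 21 h, against 2.55% and 1.08%. Serp1 thus keeps its 2-fold difference on its probes outside the affected runs. The only probe of Sec22b lies outside them, so leaving them out could not change its values. Sec61b, Kdelr3 and Copb1 have no probe outside them. The runs were defined on the 0.5 h and 2 h arrays, so leaving them out does not check the 7 h and 21 h arrays.

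**Figure D1:**
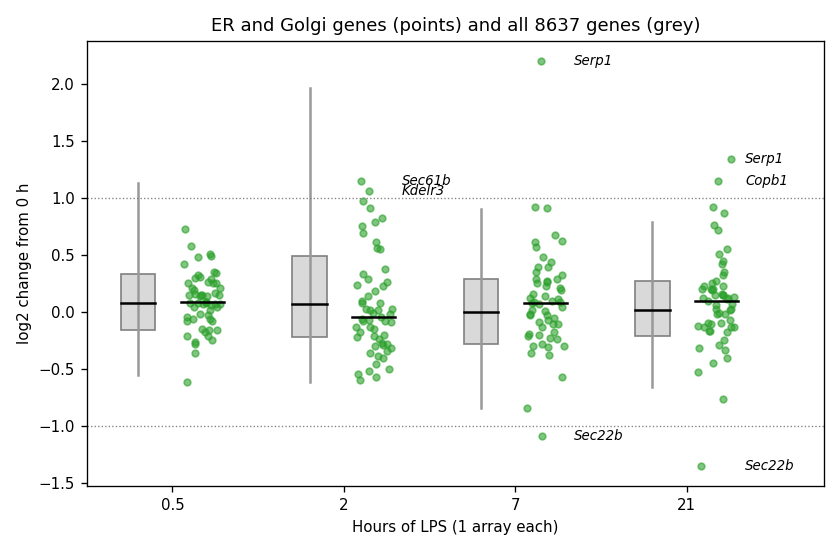
Log2 change from 0 h (vertical axis) at 4 times of LPS (horizontal axis, 1 array each). Green points are the 57 ER and Golgi genes with their median as a black line; grey boxes show the interquartile range, and grey lines the 5th to 95th percentile, of all 8637 genes, and dotted lines mark 2-fold. Serp1 stands alone at 2.20 at 7 h, and Sec22b lies lowest at 7 h and 21 h.

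Over genes with any number of probes, the narrow spread showed at every time against 0 h. The interquartile range of the 57 changes ran from -0.06 to 0.25 at 0.5 h, from -0.27 to 0.26 at 2 h, from -0.18 to 0.29 at 7 h and from -0.13 to 0.23 at 21 h. For all genes it ran from -0.16 to 0.33, -0.22 to 0.49, -0.28 to 0.29 and -0.21 to 0.27. Averaging over probes narrows such a range, and 45.6% of the 57 genes had a single probe, against 65.1% of all genes. Among genes with 1 probe, 80.8% of the 26 ER and Golgi genes and 74% of all genes lay within 1.5-fold at 7 h. At 21 h these shares were 80.8% and 81.6%, so the difference seen over all genes at 21 h was not seen there. At 2 h they were 73.1% and 69.8%. The interquartile ranges of genes with 1 probe were close at 2 h (-0.25 to 0.48 against -0.26 to 0.52) and 21 h (-0.18 to 0.30 against -0.23 to 0.29). At 0.5 h the range of the ER and Golgi genes was narrower (-0.07 to 0.24 against -0.21 to 0.33).

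Serp1 stood furthest from 0 h. It encodes a small protein of the ER membrane that binds the Sec61 channel and is known to protect new membrane proteins during ER stress (Entrez Gene 28146, 3 probes). Its log2 ratios to embryo were 0.19, 0.39, 0.87, 2.38 and 1.53 at 0, 0.5, 2, 7 and 21 h. It was thus highest at 7 h and still high at 21 h. Against 0 h it was 4.59-fold higher at 7 h (log2 change 2.20, SD over probes 0.24) and 2.53-fold higher at 21 h (1.34, SD 0.14). At 0.5 h and 2 h the changes were 0.21 (SD 0.13) and 0.69 (SD 0.29). Each of the 3 probes showed the same course: at 7 h they stood 3.81-, 4.80- and 5.27-fold above 0 h, at 21 h 2.33-, 2.49- and 2.81-fold. One of them lies in an affected run, and without it the changes at 7 h and 21 h were 2.16 and 1.35. The level at 21 h was lower than at 7 h by a log2 difference of -0.86 (SD 0.13), in all 3 probes. Quantile normalization gave larger changes for this gene, 2.97 at 7 h and 1.87 at 21 h.

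Sec22b was the lowest of the 57 genes at 7 h and 21 h. It encodes a SNARE, a protein that fuses ER-Golgi vesicles with their target membrane, and in phagocytes it is also known from ER contacts with phagosomes (Entrez Gene 20333, 1 probe outside the affected runs). Its log2 ratios were 1.71, 1.91, 1.24, 0.61 and 0.36 in order of time. At 0 h this was the highest ratio to embryo of all 57 genes, and at 21 h little of that excess was left. The changes were 0.21, -0.46, -1.09 and -1.35, that is 0.468 of the 0 h level at 7 h and 0.393 at 21 h. With a single probe there is no spread within the gene, and the pooled SD over probes of one gene, over all genes, was 0.51 at 7 h and 0.47 at 21 h. Under quantile normalization the changes at 0.5, 2, 7 and 21 h were -1.37, -2.15, -2.25 and -2.56, so there the direction at 0.5 h turned and the level was low from 0.5 h on. The related Sec22a, also with 1 probe, had changes of 0.06, 0.79, -0.36 and -0.33, so both Sec22 genes lay below 0 h at the late times but only Sec22b by 2-fold.

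Copb1 encodes the beta subunit of the COPI coat (Entrez Gene 70349). Its log2 ratios were 1.18, 1.44, 1.42, 1.20 and 2.33. The first 4 arrays lay within 0.26 of one another and the 21 h array stood apart. At 21 h it was 2.22-fold above 0 h (log2 change 1.15), after 0.02 at 7 h. Its only probe lies in an affected run. Such runs were defined on the 0.5 h and 2 h arrays alone, and this run was not examined at 21 h. Set against the 0.5 h array instead of the 0 h array, its change at 21 h was 0.89, short of 2-fold. Under quantile normalization its changes were -0.63 at 0.5 h and -0.90 at 2 h, opposite in direction to the 0.26 and 0.24 here, and 1.44 at 21 h.

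**Figure D2:**
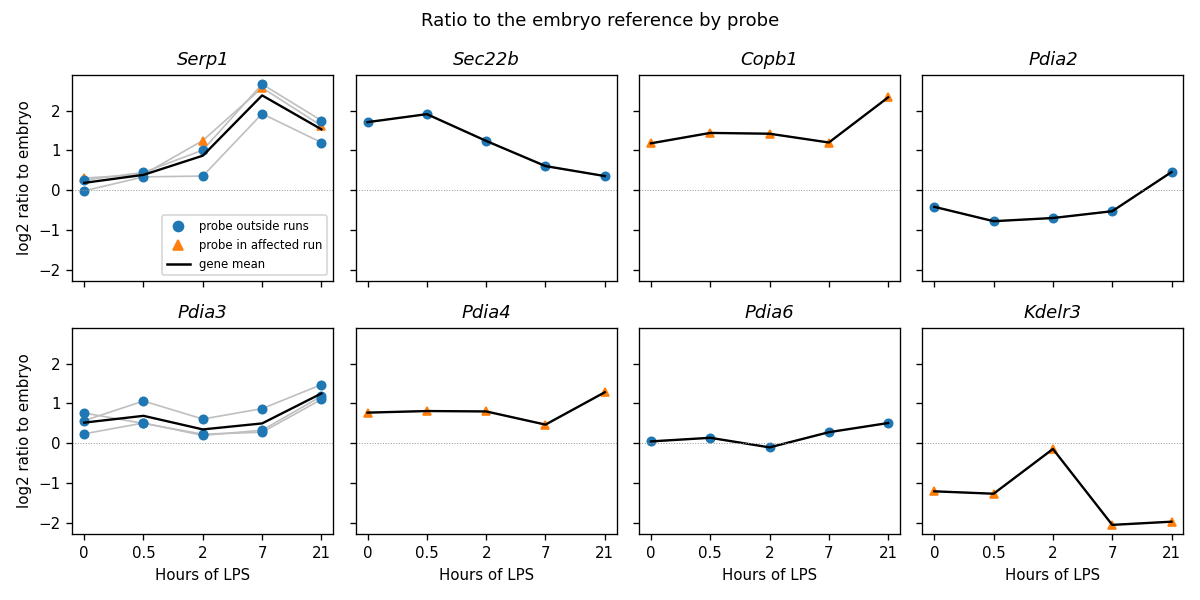
Log2 ratio to the embryo reference (vertical axis) on the 5 arrays (hours of LPS, not to scale) for 8 genes. Each point is a probe, orange triangles lie in affected runs, and black lines are the gene means. The 3 probes of Serp1 peak together at 7 h, Sec22b is lower on each array after 0.5 h (under quantile normalization already at 0.5 h), and the 4 PDI genes are highest at 21 h.

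The PDI genes shared a higher level at 21 h. Pdia3 (also called ERp57, which works on glycoproteins with calnexin and calreticulin) had ratios of 0.52, 0.69, 0.35, 0.50 and 1.25 over 3 probes. Pdia4 (ERp72, 1 probe, in an affected run) had 0.77, 0.81, 0.80, 0.47 and 1.28. Pdia6 (P5, 1 probe outside the affected runs) had 0.05, 0.14, -0.10, 0.28 and 0.51. Pdia2, known mainly from pancreas, had -0.41, -0.77, -0.69, -0.52 and 0.46 on 1 probe outside the affected runs. In each of the 4 the 21 h array gave the highest of the 5 ratios. At 21 h the 4 genes were 1.83-fold (Pdia2), 1.65-fold (Pdia3, log2 change 0.72, SD over probes 0.34), 1.43-fold (Pdia4) and 1.37-fold (Pdia6) above 0 h. None reached 2-fold. At 7 h, 1 of the 4 had been above 0 h, with a group median of -0.07, and at 21 h all 4 were, with a median of 0.62 beside 0.02 for all genes. Of all genes 49.9% lay above 0 h at 7 h and 52.5% at 21 h.

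The comparison of 21 h with 7 h does not use the 0 h array, but it shares the single 21 h array with the comparison above. There the PDI changes were 0.98 (Pdia2), 0.75 (Pdia3, SD over probes 0.14), 0.81 (Pdia4) and 0.23 (Pdia6), with a median of 0.78, and the 57 genes had a median of 0.00. The first 3 exceed the pooled SD over probes of one gene in this comparison, 0.40, and Pdia6 does not. From 0 h to 21 h that SD was 0.47, which Pdia4 (0.51) exceeded by little and Pdia6 (0.45) did not. An SD over probes does not measure the spread between cultures or arrays. All 4 stayed above 0 in both comparisons under each scaling tried, and the smallest changes from 0 h to 21 h, those without centring, ran from 0.31 to 0.73. Without the affected runs Pdia4 has no probe, and the 3 PDI genes left lay above 0 in both comparisons. From 7 h to 21 h, 1 of the 57 genes passed 2-fold upward and 0 downward, against 1.82% and 1.12% of all genes. Without the affected runs 0 of 47 passed in either direction, against 1.80% and 1.07%. That gene was Copb1 (1.13), and the COPI alpha subunit gene Copa went the other way, by -0.88.

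Upstream sequences of these genes were searched for elements known from the unfolded protein response (UPR), the program by which stressed cells enlarge their ER, and from LPS signalling. RefSeq (GRCm38.p6) promoters matched 46 of the 57 genes, with 48 start sites. The 250 bases before each start were searched on both strands, and the same was done for all 32851 promoters of the table. The ER stress element, CCAAT and CCACG with any 9 bases between them, lay before Pdia6 alone, 1 of 48 promoters, and before 0.113% of all promoters. Its second form, ATTGG and CCACG with any base between them, lay before 0 of 48, against 0.0304% of all. The UPR element TGACGTGG lay before Copb1, Kdelr3 and Sec24d, 6.25% of the 48 against 0.563% of all. The NF-kappaB letters, GGGA and TTTCC with any base between them, lay before 0 of 48 (0.356% of all), the AP-1 letters TGANTCA before Sec14l1, Sec61b and Srp14 (6.25% against 6.75%) and the CRE letters TGACGTCA before Cope (2.08% against 1.55%). TGACGTGG and TGACGTCA share their first 6 letters. The Serp1 promoter held none of these, but CCAAT stands there directly before CCACG. This joined form was searched only after the sequence had been read, and lay before 1 of 48 promoters and 0.0396% of all. The stretches around the ER stress and UPR elements are shown for Serp1, Copb1 and Kdelr3, which passed 2-fold at some time, and for the PDI gene with the full element, with the matched letters in capitals, 5′ to 3′ on the gene's strand.
Serp1, chr3:58525914-58525943, minus strand, inside the span of the neighbouring gene Eif2a: agcctcggggCCAATCCACGtctggttccc
Pdia6, chr12:17266471-17266529, plus strand: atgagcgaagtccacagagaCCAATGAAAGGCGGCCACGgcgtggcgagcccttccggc
Copb1, chr7:114254681-114254728, minus strand, element on the opposite strand: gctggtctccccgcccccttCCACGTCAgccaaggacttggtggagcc
Kdelr3, chr15:79516358-79516405, plus strand, element on the opposite strand: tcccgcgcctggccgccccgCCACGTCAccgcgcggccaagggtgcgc
These matches describe letters in the reference strain, and no binding was measured. The 3 genes with the UPR element did not move alike: at 21 h Copb1 stood at 1.15, Kdelr3 at -0.76 and Sec24d at 0.06.

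In the targeting step, the alpha subunit gene of the SRP receptor, Srpr, had the highest changes at 7 h and 21 h. Srpr (1 probe outside the affected runs) had ratios of -0.66, -0.51, -0.05, -0.04 and -0.11, so the 3 later arrays lay together above the first 2. Its changes at 2, 7 and 21 h were 0.61, 0.62 and 0.55, a 1.46-fold higher level at 21 h. The beta subunit gene Srprb (3 probes) had 0.03 at 21 h (SD over probes 0.22). Among the SRP proteins, the changes at 21 h ran from -0.17 for Srp72 to 0.35 for Srp68 (SD 0.51), with 0.10 to 0.25 for Srp9, Srp14, Srp19 and Srp54a. Srp54a had been the highest of this step early, with 0.35 at 0.5 h and 0.75 at 2 h on a probe in an affected run. It has near-identical copies in the mouse genome, so its probe may read more than 1 gene. In all, 7 of the 8 genes of this step lay above 0 h at 21 h, but 5 of 8 without centring of the arrays. Of all genes 52.5% lay above 0 h at 21 h with centring.

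The Sec61 channel itself showed no 2-fold difference at 7 h or 21 h. Sec61a1, which encodes the pore, had ratios of 0.48, 0.96, 0.81, 0.30 and 0.08, a change of -0.40 at 21 h (SD over probes 0.26, 2 probes). Sec61a2, the second pore gene, had -0.02 at 21 h, the small subunit gene Sec61g 0.15 (5 probes, SD 0.53) and Sec62, which helps short proteins enter, 0.03 (3 probes, SD 0.03). The other small subunit gene, Sec61b, was 1 of the 2 genes past 2-fold at 2 h, with ratios of -0.02, 0.46, 1.14, 0.27 and -0.15. Its 3 probes all lie in affected runs and disagreed at 2 h, with changes of 0.28, 0.92 and 2.26 (SD 1.01), and the median over probes was 0.28. They disagreed at 7 h too, with 0.00, 1.32 and -0.45 in the same order of probes.

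The TRAP complex, 4 subunits that sit beside Sec61 and help some signal peptides, had changes of -0.20 (Ssr1), 0.35 (Ssr2), 0.39 (Ssr3) and 0.39 (Ssr4) at 7 h. At 21 h they were -0.29, 0.13, -0.12 and 0.20. All 4 were lower at 21 h than at 7 h, by -0.09 to -0.51, which also held under each scaling tried. Of all genes 52.9% were higher at 21 h than at 7 h. The pooled SD over probes of one gene was 0.40 there, and only Ssr3, at -0.51, lay beyond it. That value rests on a probe in an affected run (-0.82), since the other probe gave -0.19, and without the affected runs the 4 differences ran from -0.19 to -0.00, within that SD. The signal peptidase genes, with Sec11a and Sec11c as catalytic and Spcs1 and Spcs2 as accessory subunits, had changes of 0.11, -0.25, -0.01 and 0.23 at 21 h. Spcs1 was the steadiest of them late, with -0.02 at 7 h (2 probes, SD 0.04) after -0.54 at 2 h (SD 0.06).

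**Figure D3:**
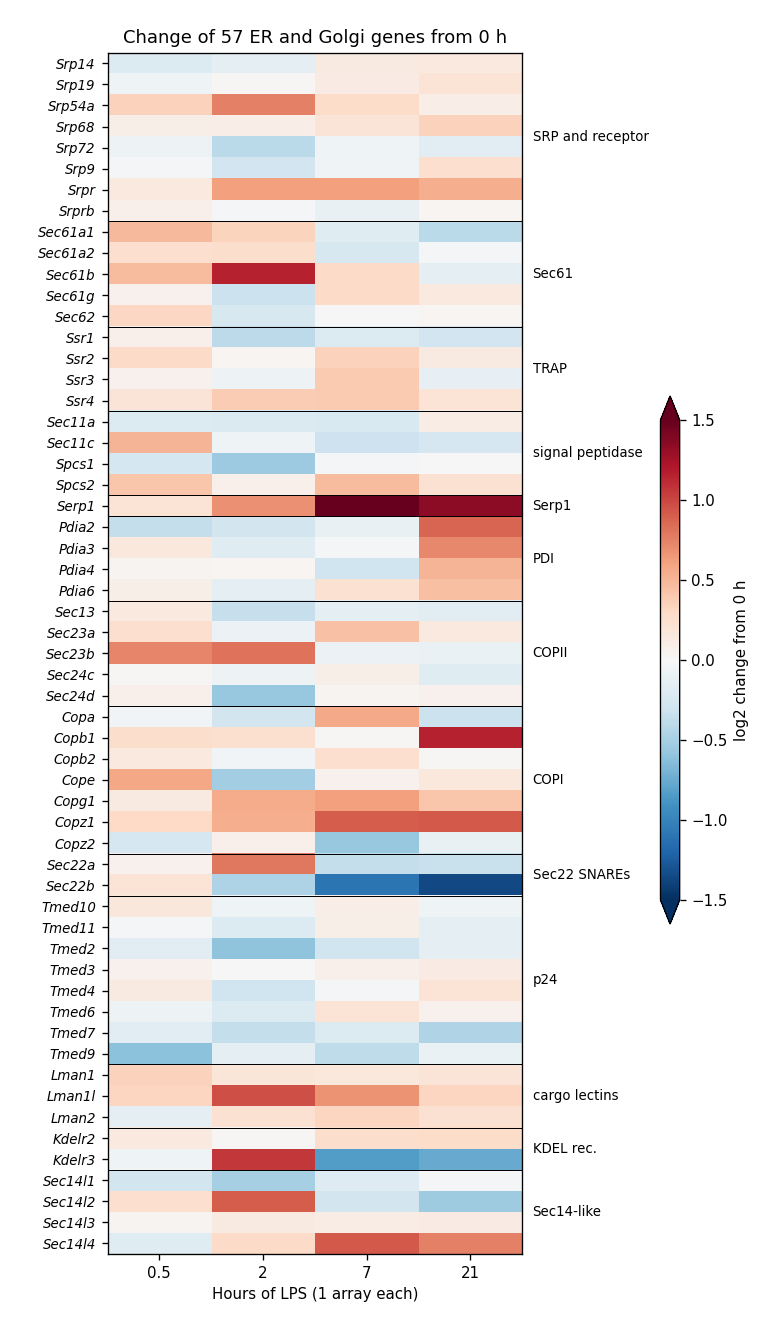
Log2 change from 0 h (colour, red higher and blue lower, values beyond 1.5 shown in the end colour) of the 57 genes (rows, grouped by role) at 0.5, 2, 7 and 21 h of LPS (columns, 1 array each). Serp1 is the darkest red at 7 h and 21 h, and Sec22b the darkest blue at both times. Each of the 4 PDI genes is redder at 21 h than at its other times.

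The COPII coat, which forms vesicles at the ER, stayed close to 0 h at 21 h. Sec13 and the cargo-binding and inner coat genes Sec23a, Sec23b, Sec24c and Sec24d had changes from -0.13 to 0.44 at 7 h and from -0.18 (Sec24c) to 0.15 (Sec23a, 3 probes, SD over probes 0.26) at 21 h. Sec23b had 0.73 at 0.5 h and 0.82 at 2 h on 2 probes in affected runs, of which 1 gave 1.85 at 2 h and the other -0.20. At 2 h Sec24d stood at -0.57 and Sec13 at -0.34 (SD 0.28), both on probes outside the runs. Without the affected runs the 3 COPII genes left all lay below 0 h at 2 h, with a median of -0.53 in place of -0.09. Of all genes outside the runs 42.6% lay above 0 h at 2 h. In the COPI coat, the small zeta subunit gene Copz1 had ratios of -0.60, -0.30, -0.05, 0.31 and 0.32 on 1 probe outside the affected runs. It was thus below the array median on the first 3 arrays and above it on the last 2, 1.87-fold above 0 h at 7 h and 1.89-fold at 21 h. Its paralog Copz2 had the second lowest ratio of the 57 genes at 0 h, -0.95, and changes of -0.57 at 7 h and -0.11 at 21 h. Copg1 (gamma subunit, 2 probes) had 0.61 at 7 h (SD 0.49) and 0.42 at 21 h (SD 0.16). Copa, on 1 probe in an affected run, had 0.57 at 7 h and -0.32 at 21 h, and Copb2 and Cope lay between 0.02 and 0.25 at both times. At 7 h, 6 of the 7 COPI genes lay above 0 h with a median of 0.25, but 4 of 7 without centring, with a median of 0.03. Of all genes 49.9% lay above 0 h at 7 h with centring.

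The p24 genes, whose products are abundant cargo receptors of both vesicle types, stayed close to 0 h late. Their 8 changes there ran from -0.45 (Tmed7, 3 probes, SD over probes 0.33) to 0.20 (Tmed4), with a median of -0.09. At 2 h all 8 lay below 0 h, from -0.60 (Tmed2) to -0.01 (Tmed3), but 6 of 8 did when the arrays were centred on the probes outside the affected runs. Of all genes 56% lay above 0 h at 2 h, and 42.6% without the affected runs. Tmed10, the member with most probes on the array (6), had a change of -0.07 at 21 h with an SD of 0.42. Probes of one gene spread widely for Tmed3 (0.12 at 21 h, SD 0.89) and Tmed6 (0.07, SD 0.61), so their means near 0 include single probes as high as 1.09 and 1.04.

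Among the cargo lectins, which bind sugar chains, Lman1 (ERGIC-53) had a change of 0.19 at 21 h (2 probes, SD 0.15), Lman2 0.23 and Lman1l 0.32. Lman1l was highest at 2 h, with 0.97 on a probe outside the affected runs. Lman2l had no value at 0 h and ratios of -0.39, -0.74, -0.26 and 0.16 at the later times. Of the KDEL receptors, which return ER residents, Kdelr2 (2 probes) had 0.26 at 7 h and 0.27 at 21 h (SD 0.48 and 0.56). Kdelr1 had no value at 2 h and changes of 0.42, -0.01 and 0.05 at 0.5, 7 and 21 h. Kdelr3 had the lowest ratio of the 57 genes at 0 h. Its values were -1.20, -1.26, -0.14, -2.04 and -1.96, so the 2 h array stood above the first 2 and the last 2 below them. It was 2.08-fold above 0 h at 2 h and at 0.56 and 0.59 of it at 7 h and 21 h, on 1 probe in an affected run.

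The genes Sec14l1 to Sec14l4 match by name but are not part of this route: they encode lipid-binding proteins related to yeast Sec14. Sec14l4 had changes of 0.92 at 7 h and 0.76 at 21 h, but its 2 probes disagreed at 7 h (1.80 and 0.04). The other 3 lay between -0.53 and 0.12 at 21 h. None of the 4 passed 2-fold at any time.

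Against the embryo, the machinery of untreated macrophages was near the array median. The median ratio of the 57 genes was -0.08, beside -0.03 for all genes, and the interquartile range ran from -0.34 to 0.24. Above the median by 2-fold or more stood Sec22b (1.71) and Copb1 (1.18), 3.51% of the genes against 5.40% of all genes, followed by Pdia4 at 0.77. Below it by 2-fold or more stood Kdelr3 (-1.20), 1.75% against 7.06%, followed by Copz2 (-0.95) and Srp68 (-0.82). At 21 h, 5 of the 57 genes stood 2-fold or more above the array median: Copb1 (2.33), Serp1 (1.53), Sec14l4 (1.37), Pdia4 (1.28) and Pdia3 (1.25). That is 8.77% of the 57 genes, beside 6.88% of all genes. Kdelr3 (-1.96) and Copz2 (-1.06) stood 2-fold or more below it, 3.51% against 6.51%. Whether more RNA per cell or more cells of one kind lie behind such a ratio cannot be told apart in RNA of a whole culture.

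Partners of these genes were read from lists of the UPR and ER chaperones, of sugar chain attachment and of vesicle traffic. Of 33 genes of the UPR and ER chaperones, 0 passed 2-fold at 7 h or 21 h, with medians of 0.02 and 0.05. Of all genes 4.08% passed upward and 3.16% downward at 7 h, and 3.05% and 1.45% at 21 h, so a count of 0 or 1 in a list of this size is near the background. Hspa5 (BiP, the main ER chaperone) was the highest at 7 h, with ratios of 0.71, 0.96, 1.35, 1.68 and 1.25 over 3 probes outside the affected runs. That is 1.96-fold above 0 h at 7 h (log2 change 0.97, SD over probes 0.17) and 1.45-fold at 21 h (0.54, SD 0.16), so like Serp1 it was highest at 7 h. Next at 7 h came Vcp (0.80, SD 0.80), Ppp1r15a (0.76) and the BiP cofactor gene Dnajb9 (0.56, SD 0.21). The lowest at 7 h and 21 h was Edem1, which helps dispose of misfolded glycoproteins, with -0.90 (SD 0.88) and -0.82 (SD 0.29), then Creld2 with -0.62 and -0.67. The UPR regulator Xbp1 had 0.17 at 7 h and -0.13 at 21 h over 3 probes, Atf4 had 0.02 and 0.31, and Ddit3 (CHOP) -0.33 and -0.25.

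At 21 h the highest of this list was Ero1a, the oxidase that recharges PDIs, with ratios of 0.54, 0.36, 0.80, 0.34 and 1.49 on 1 probe outside the affected runs. It stood 1.94-fold above 0 h at 21 h (log2 change 0.96) after -0.20 at 7 h, a late course like that of the PDI genes. Other oxidoreductases had smaller changes or lay below 0 h: Erp44 had 0.37 at 21 h (SD over probes 0.09), P4hb, the founding PDI whose symbol lies outside the Pdia names, 0.29 (SD 0.77) and Txndc5 0.15. Ero1b, the paralog of Ero1a, had -0.07 at 21 h, and the PDI-family genes Erp29 and Dnajc10 had -0.26 and -0.20. The lectin chaperone gene Calr had 0.38 (SD 0.27) and the chaperone gene Hsp90b1 0.45 (SD 0.23). Early, Ppp1r15a (GADD34, which restarts translation after stress) stood 4.39-fold above 0 h at 0.5 h on a probe outside the affected runs, with log2 changes of 1.31, 0.76 and 0.41 at the later times.

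The oligosaccharyltransferase list holds genes of the enzyme that attaches sugar chains next to Sec61, and Alg5 and Dpm1 to Dpm3, which are not its subunits. Of these 15 genes 0 passed 2-fold at any of the 4 times, with medians of 0.07 at 7 h and -0.04 at 21 h. In order of time, 5.95%, 12.4%, 4.08% and 3.05% of all genes passed upward and 1.01%, 1.10%, 3.16% and 1.45% downward. At 7 h the 15 genes ran from -0.63 (Stt3b) to 0.69 (Krtcap2). Of 41 genes of the ER-Golgi traffic machinery, 1 passed 2-fold upward and 1 downward at 7 h, and 0 at 21 h, with medians of 0.12 and 0.16. These counts too are near the shares of all genes, 4.08% and 3.16% at 7 h and 3.05% and 1.45% at 21 h. Preb, which loads the COPII GTPase Sar1, was 2.03-fold higher at 7 h on 1 probe, with ratios of 1.43, 1.86, 1.93, 2.45 and 1.92. The Golgi stacking gene Gorasp1, also on 1 probe, was lower, with ratios of 1.31, 0.95, 0.66, -0.01 and 0.33. Its changes were -1.32 at 7 h and -0.99 at 21 h. Ergic1 (0.69, SD over probes 0.17), the GTPase gene Arf4 (0.66, SD 0.29) and Trappc1 (0.65, 1 probe) followed Preb at 7 h. At 21 h Rab1b (0.77, 1 probe) and the SNARE gene Gosr2 (0.73, SD 0.30) led.

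**Figure D4:**
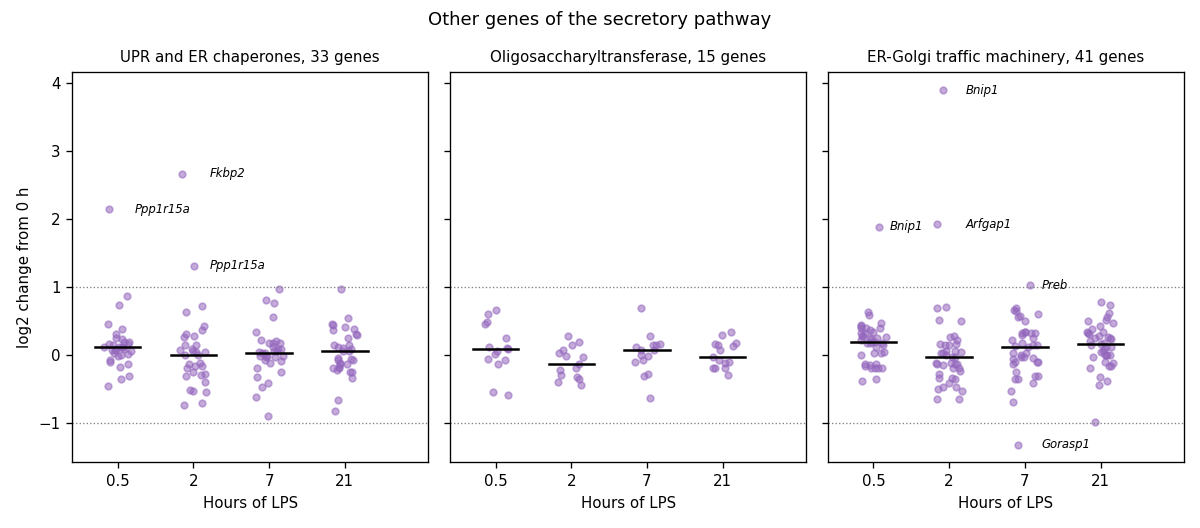
Log2 change from 0 h (vertical axis) at 4 times of LPS (horizontal axis, 1 array each) for the genes of 3 lists of partners, with list medians as black lines and 2-fold as dotted lines. Few genes pass 2-fold, among them Ppp1r15a at 0.5 h, Preb and Gorasp1 at 7 h, and genes with probes in affected runs (Fkbp2, Bnip1, Arfgap1) at 2 h.

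Markers of other cells were read on the same arrays. Plasma cells carry much of this machinery, and of 5 measured plasma and B cell markers 1 passed 2-fold upward at 7 h and at 21 h. That was Cd79b, with ratios of -2.08, -0.95, -0.03, 0.32 and -0.29 on 1 probe. At 0.5 h 2 of the 5 had passed upward, Cd79b (1.13) and Cd79a (1.23, on a probe in an affected run). At 2 h only Cd79b had (2.05). The plasma cell genes Jchain and Sdc1 had ratios of -0.11 and -0.52 at 0 h and changes of -0.00 and 0.60 at 21 h. Of 7 neutrophil markers 0 passed 2-fold at 0.5, 2 or 7 h, and at 21 h 1 did upward (Mmp9, 1.86) and 2 downward (Ngp, -1.62, and Mpo, -1.25). Of 7 stromal markers 1, Dcn, passed downward at 0.5, 2 and 7 h, and 0 at 21 h. Of all genes 5.95%, 12.4%, 4.08% and 3.05% passed upward at 0.5, 2, 7 and 21 h. Downward the shares were 1.01%, 1.10%, 3.16% and 1.45%. Lists of 5 or 7 markers are too short to be set against such shares. The part of such cells in the values above was not tested.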

How the data were processed

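The authors deposited 1 log10 ratio per probe and array (base inferred from the values). Scanning, background correction and normalization are not given in the sources used here. Depth has no meaning for these arrays, and their number (5, 1 per time) limits the precision. Of 19828 probes, 14759 carried 1 gene symbol in the platform annotation of 2008, 170 several and 4899 none. Multiplication by 3.32 gave log2 ratios, from which each array's median was subtracted (18296 probes present on all 5 arrays), and probes were averaged per symbol. All 57 genes were found in the gene table of GRCm38.p6 by Entrez identifier. Centring removed shifts from 0 h of -0.05, 0.03, -0.22 and -0.15 at 0.5, 2, 7 and 21 h, so changes are relative to the array median. Affected runs are stretches of 96 probe numbers in which at least 10% of probes, those of the 57 genes not counted, passed 2-fold upward from 0 h on the 0.5 h or the 2 h array.

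Counts use the 2-fold rule, with no test. Named are genes of the set past 2-fold at any time, the highest and lowest of each role at 21 h, the 3 highest and 3 lowest against embryo at 0 h, up to 4 highest and lowest of each partner list at 7 h and 21 h, and further genes of the set and regulators and oxidoreductases of the UPR list by role. Shares among genes with 1 probe were added after seeing the data. Alternatives varied scaling, probe averaging, the affected runs, the log base and the reference time. The members and lists were chosen with earlier results of these data known. The calculation was tested on simulated data. Python 3.11.15, pandas 2.3.3, numpy 2.4.6 and matplotlib 3.10.9 were used.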

Additional observations from a re-analysis of the deposited data

How the results depend on the processing

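With 1 array per time the precision cannot be measured, the base of the logarithm and the authors' normalization remain unknown, and the direction of the ratio rests on the markers. No paired analysis was possible because each group holds 1 sample. Of the 126 comparisons of a median or count of the 57 genes with an alternative, 101 kept the value. A median was kept if it moved by less than the pooled SD over probes of one gene divided by the square root of the number of genes. The median ratio at 0 h used the SD of the 7 h change. Counts were kept within 1.5 times. With the values read as log2, 0 genes passed 2-fold in either direction at 2, 7 and 21 h, and the median at 21 h was 0.03. Under quantile normalization the count lower at 0.5 h was 1, the counts higher and lower at 2 h were 1 and 1, the median at 2 h was -0.18 and the count higher at 7 h was 2. Without centring the medians at 7 h and 21 h were -0.14 and -0.04, the count lower at 7 h was 2 and the median ratio to embryo at 0 h was 0.05. Without the affected runs the counts higher at 2 h and 21 h were 0 and 1, because Sec61b, Kdelr3 and Copb1 have no other probe. With the median over probes the count higher at 2 h was 1. Against the 0.5 h array the counts at 2 h were 1 higher and 1 lower, the count higher at 7 h was 2, and the medians at 7 h and 21 h were 0.01 and 0.00. Centred on the probes outside the affected runs, an alternative chosen after seeing the data, the count higher at 2 h was 4 and the median ratio to embryo at 0 h was 0.03. Apart from the reading as log2, Serp1 ran from 1.98 to 2.97 at 7 h and from 1.13 to 1.87 at 21 h, Sec22b from -2.25 to -1.09 and from -2.56 to -1.35, and Copb1 from 0.89 to 1.44 at 21 h. Over 40 changes of 10 genes, 17 of 374 alternatives turned the sign, of changes no larger than 0.29 and 0 of them at 21 h. The largest of these was Sec22b at 0.5 h under quantile normalization (0.21 to -1.37).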
